A study of Arabidopsis thaliana with 16 samples.

Results

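The annotated long non-coding RNAs (lncRNAs) of Arabidopsis thaliana that were not enriched in the poly(A)+ fraction were examined in Pi-sufficient (P+) and Pi-deficient (P-) seedlings. Of 480 annotated lncRNA transcripts in the deposited expression table, 440 reached 0.1 FPKM (sequenced fragments scaled to transcript length and library size) in at least 1 of the 16 libraries. A transcript was a member when its mean FPKM over the 8 poly(A)+ libraries was less than 2 times its mean over the 8 poly(A)- libraries, and 8 loci were set aside. This left 222 members at 200 loci. Following the usual terms, 166 members with a ratio of poly(A)+ to poly(A)- above 0.5 were bimorphic and 56 with a ratio of 0.5 or less were poly(A)- enriched. Another 211 transcripts were poly(A)+ (ratio of 2 or more), 2 transcripts with a ratio under 2 lay at the loci set aside, and 40 stayed under 0.1 FPKM. The members and their class were thus chosen by the ratio of mean FPKM, so it is described here and not tested.

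Wild-type Col-0 seedlings were 10 days old, and their roots and shoots were taken separately. P+ medium held 1.25 mM KH2PO4, and P- medium was the same except that 0.65 mM K2SO4 took its place. RNA of each tissue and Pi supply was separated with oligo(dT) beads into poly(A)+ and poly(A)- fractions, which gave 8 groups of 2 libraries. The labels place the depletion of rRNA before this step and the study's methods place it on the poly(A)- fraction alone. All groups were whole roots or whole shoots, so that fewer cells of a type and less RNA per cell cannot be told apart.

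A poly(A) tail marks most RNA polymerase II transcripts after cleavage at the 3′ end. RNAs that end without one include products of RNA polymerase III, which stops at a run of T, small nucleolar RNAs (snoRNAs) trimmed from longer precursors, and fragments left by cleavage. A bimorphic RNA is found with and without a tail. Annotated lncRNAs also include the TAS transcripts, which a microRNA cuts so that RDR6 and DCL4 can turn them into trans-acting siRNAs, and natural antisense transcripts read from the strand opposite a protein-coding gene.

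Among the members were 5 TAS transcripts, and the sites that start their processing are shown because they identify the RNAs. For each miRNA the mature sequence is given 5′ to 3′ with its seed (bases 2 to 8) in capitals. For each TAS transcript the best ungapped match to the complement of the miRNA is given with the paired bases in capitals, in TAIR10.1 coordinates. The miR173 sites of TAS1A, TAS1C and TAS2 paired at 20 of 22 bases and that of TAS1B at 19 of 22. The 2 miR390 sites of TAS3 paired at 16 of 21 bases each.
miR173-5p (chr3:8236161-8236182, + strand): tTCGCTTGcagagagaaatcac
TAS1A site (chr2:11722081-11722102, - strand): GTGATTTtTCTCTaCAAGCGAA
TAS1B site (chr1:18549660-18549681, - strand): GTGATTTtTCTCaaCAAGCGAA
TAS1C site (chr2:16537890-16537911, - strand): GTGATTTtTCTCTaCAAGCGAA
TAS2 site (chr2:16539991-16540012, - strand): GTGATTTtTCTCTcCAAGCGAA
miR390a-5p (chr2:16061971-16061991, + strand): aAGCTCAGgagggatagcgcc
TAS3 site, 5′ (chr3:5862099-5862119, + strand): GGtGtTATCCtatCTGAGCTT
TAS3 site, 3′ (chr3:5862343-5862363, + strand): ttgtCTATCCCTCCTGAGCTa

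The upstream sequence element (USE) with a TATA box drives plant snRNA genes, and the spacing between both is known to separate genes read by RNA polymerase II from those read by RNA polymerase III, which have the shorter spacing. The letters CCCACATCG were searched on both strands of the 250 bases before each annotated start. They were found at 4 of 200 member loci, 2.00%, and at 99 of 37899 annotated genes, 0.261%, while 0 of 182 poly(A)+ lncRNA loci held them. The stretches from the USE onward are shown, with the USE and the next TATA in capitals. There were 26 bases between both in AT1G15405, AT3G61198 and AT4G00975, and 34 in AT1G70185. A match is a description of these letters only.
AT1G15405 (chr1:5298183-5298242, - strand): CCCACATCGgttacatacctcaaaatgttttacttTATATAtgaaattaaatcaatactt
AT3G61198 (chr3:22656622-22656681, - strand): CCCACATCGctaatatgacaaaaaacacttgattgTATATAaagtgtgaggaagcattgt
AT1G70185 (chr1:26429656-26429715, + strand): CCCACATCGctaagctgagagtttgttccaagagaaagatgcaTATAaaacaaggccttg
AT4G00975 (chr4:421920-421972, + strand): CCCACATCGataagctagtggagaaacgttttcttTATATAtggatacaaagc

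AT1G15405, the most abundant member, is a locus of 292 bases annotated as ncRNA of unknown function, and its annotated end is a run of T, shown in capitals. On the same strand the annotation also lists the lncRNA AT1G05163 there.
AT1G15405 locus (chr1:5297875-5298166, - strand): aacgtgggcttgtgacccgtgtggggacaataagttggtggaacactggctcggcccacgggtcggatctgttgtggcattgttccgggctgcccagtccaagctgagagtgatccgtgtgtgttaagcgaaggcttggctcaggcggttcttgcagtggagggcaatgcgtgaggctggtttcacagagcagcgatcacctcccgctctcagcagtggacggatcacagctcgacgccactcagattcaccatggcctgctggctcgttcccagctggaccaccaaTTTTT

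At 10 member loci an annotated snoRNA gene overlapped on the same strand, 23 snoRNA genes in all. Box C/D snoRNAs guide 2′-O-methylation of rRNA and snRNA and carry the C box TGATGA near the 5′ end and the D box CTGA near the 3′ end. The letters of both, at any position in the gene, were found in 8 of the 23 (34.8%) and in 139 of 287 annotated snoRNA genes (48.4%). In snoR122 and AtsnoR44-1b TGATGA began at base 48 of 74 and base 45 of 82, which is not near the 5′ end. From 3 member loci, 1 example each is shown with the boxes in capitals.
snoR133 (AT5G01195) in AT5G06165 (chr5:1867740-1867831, - strand): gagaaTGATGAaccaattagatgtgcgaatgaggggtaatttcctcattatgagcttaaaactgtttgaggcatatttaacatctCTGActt
AtsnoR34 (AT1G05247) in AT1G16635 (chr1:5686093-5686179, - strand): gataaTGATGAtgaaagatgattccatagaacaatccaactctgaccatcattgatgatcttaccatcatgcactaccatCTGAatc
AtU18-1 (AT5G02305) in AT5G15022 (chr5:4866462-4866538, + strand): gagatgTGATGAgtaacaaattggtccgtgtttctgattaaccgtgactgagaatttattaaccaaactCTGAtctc

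Over the 8 libraries of a fraction, the median member had 4.33 FPKM in poly(A)+ and 5.03 FPKM in poly(A)-. Bimorphic members had medians of 5.86 and 5.65 FPKM, and poly(A)- enriched members 1.20 and 3.88 FPKM. Just inside the limit of 2 were AT1G22403.2 (ratio 1.985), AT4G38545.2 (1.982), AT2G09795.2 (1.973) and AT1G48315.1 (1.962). Just outside were AT3G22121.1 (2.004), AT1G67792.1 (2.007), AT1G60525.1 (2.020) and AT2G33051.1 (2.032), so the limit did not fall in a gap. Per library, 127 to 137 of the 222 members reached 0.1 FPKM in poly(A)- of shoots, 154 to 175 in poly(A)- of roots and 180 to 192 in poly(A)+. FPKM tables keep no read depth, so whether a value of 0 reflects absence or depth could not be read from them.

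**Figure D1:**
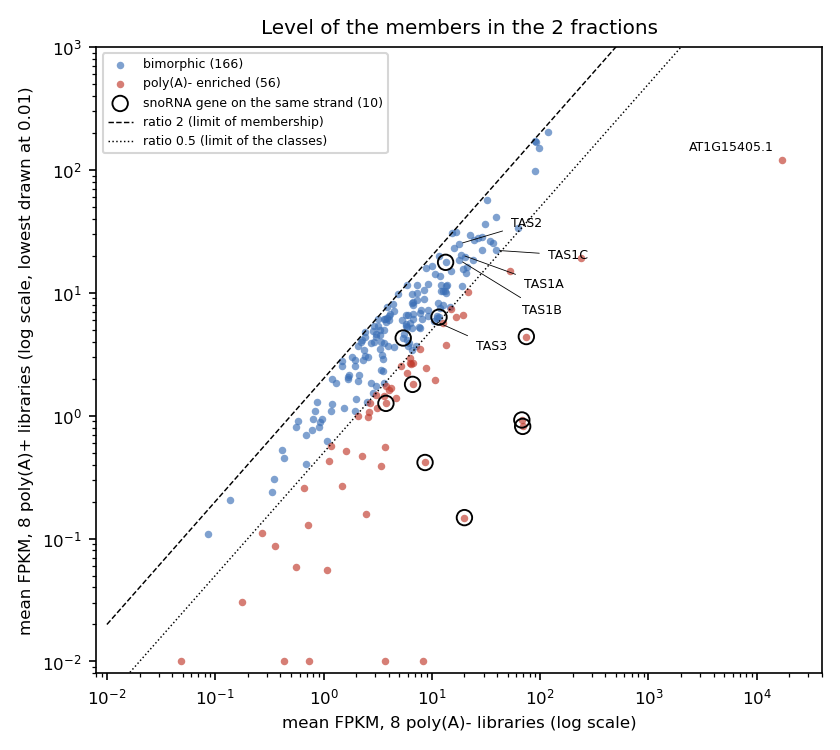
Mean FPKM of each of the 222 members over the 8 poly(A)+ libraries (vertical, log scale) against that over the 8 poly(A)- libraries (horizontal, log scale), with bimorphic members in blue, poly(A)- enriched members in red and the 10 members with a same-strand snoRNA gene circled. AT1G15405.1 stands alone on the right at 17231 FPKM in poly(A)-, and 7 of the circled members lie below the dotted line at a ratio of 0.5.

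AT1G15405.1 had the highest mean of all members. Its poly(A)- libraries read 11396 and 35592 FPKM in P+ roots and 14808 and 13343 in P- roots, and 10662 and 14574 (P+) and 24825 and 12651 (P-) in shoots. The poly(A)+ libraries read 330.2 and 52.3 in P+ roots and 148 and 40.3 in P- roots, and 70.9 and 58.2 (P+) and 144 and 126 (P-) in shoots. The fractions did not overlap in any condition, and the ratio of the means was 0.00704. In poly(A)+ both P- shoot libraries lay above both P+ shoot libraries. The other comparisons of tissue or Pi supply within a fraction overlapped. For poly(A)- the log2 differences of P- against P+ were -0.52 ± 0.80 (SE) in roots and 0.51 ± 0.80 in shoots. Library 3 of P+ roots, where this RNA was highest, summed to 41530 FPKM over all annotated lncRNAs, of which 35592 FPKM were AT1G15405.1.

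AT3G59068.1, which lies opposite the coding gene AT3G59070, came next among the poly(A)- enriched members. It read 79.7 and 329.6 FPKM in P+ roots and 334 and 19.0 in P- roots, and 266 and 358 (P+) and 319 and 187 (P-) in shoots of the poly(A)- fraction. Its poly(A)+ libraries ranged from 6.02 to 46.0 FPKM. A single poly(A)- library, of P- roots, fell inside the poly(A)+ range.

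The highest bimorphic members were AT3G12965.1, AT5G48412.1, AT4G36648.1 and AT1G79075.1, with means over 16 libraries of 161, 131, 129.8 and 125 FPKM, followed by AT3G06125.2 (93.1) and AT1G76892.1 (48.2), the latter opposite the trihelix factor gene GT2. AT3G12965.1 ranged from 51.3 to 558 FPKM in poly(A)+ and from 37.8 to 203 FPKM in poly(A)-. AT4G36648.1 ranged from 73.0 to 378 FPKM in poly(A)+ and from 38.3 to 151 FPKM in poly(A)-. In these RNAs the fractions overlapped.

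The 10 members with snoRNA genes held 7 of 55 poly(A)- enriched loci (12.7%, 95% Wilson interval 6.30 to 24.0), 3 of 154 bimorphic loci (1.95%, 0.665 to 5.57) and 0 of 182 poly(A)+ loci (upper limit 2.07%). AT2G46192.1, over which 5 snoRNA genes are annotated, read 14.8 and 51.2 FPKM in P+ roots and 77.6 and 33.2 in P- roots, and 99.5 and 84.4 (P+) and 143 and 92.9 (P-) in shoots of poly(A)-, against 1.62 to 7.30 FPKM in poly(A)+. AT5G06165.1, with snoR120 and snoR133, read 24.2 and 10.9, 44.5 and 15.1, 0 and 19.8, and 39.9 and 5.58 FPKM in the same order, while 6 of its 8 poly(A)+ libraries were listed at 0. AT1G15002.1 (AtsnoR92) and AT3G55485.1 (snoR125) had means of 68.9 and 67.7 FPKM in poly(A)- and 0.818 and 0.923 FPKM in poly(A)+. Each transcript has 1 value per library, so the share of it that came from the snoRNA stretches was not tested.

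Of the 8 lowest ratios among members with 1 FPKM or more in poly(A)-, 4 were at loci with snoRNA genes (AT5G06165.1, AT1G15002.1, AT3G55485.1 and AT1G16635.1). The ratios of 2 others rested on few libraries. AT4G03811.1 was above 0 in 2 libraries only, at 3.61 and 26.1 FPKM in poly(A)-, and AT1G18382.1 reached 65.9 FPKM in library 3 of P+ roots and was near 0 in the others. AT4G34332.1 had 1.08 FPKM in poly(A)- and 0.0559 in poly(A)+.

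**Figure D2:**
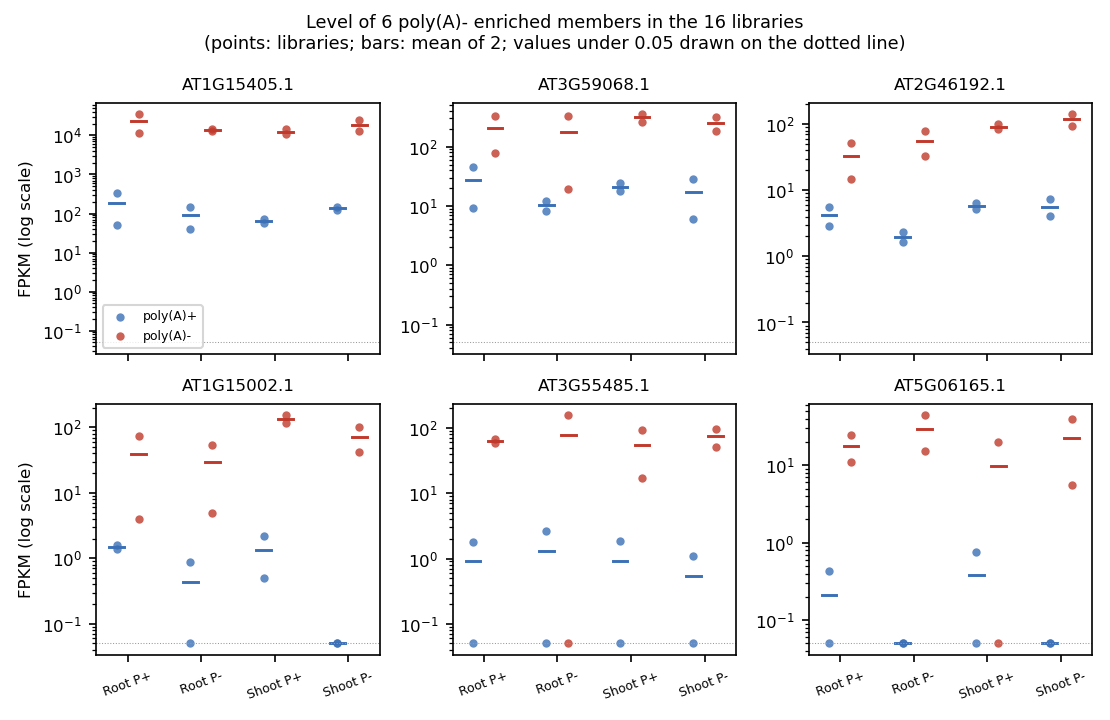
FPKM (log scale) of 6 poly(A)- enriched members in each library, by tissue and Pi supply, with poly(A)+ in blue, poly(A)- in red, points for libraries and bars for the mean of 2. AT1G15405.1 and AT2G46192.1 are higher in every poly(A)- library than in every poly(A)+ library, while AT3G55485.1 and AT5G06165.1 each have a poly(A)- library listed at 0.

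The class of a member was not stable when the ratio was computed within each tissue and Pi supply, from 2 libraries a fraction. Of the 166 bimorphic members, 94 (P+) and 93 (P-) were bimorphic in roots and 78 (P+) and 73 (P-) in shoots, and 14 were so in all 4. They had a ratio of 2 or more in 39, 53, 59 and 59 cases in the same order, and 124 did so in at least 1 condition. Of the 56 poly(A)- enriched members, 31 to 33 kept that class in a given condition and 8 in all 4. The differences between conditions were not tested, since the ratio is the measure that chose the members.

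**Figure D3:**
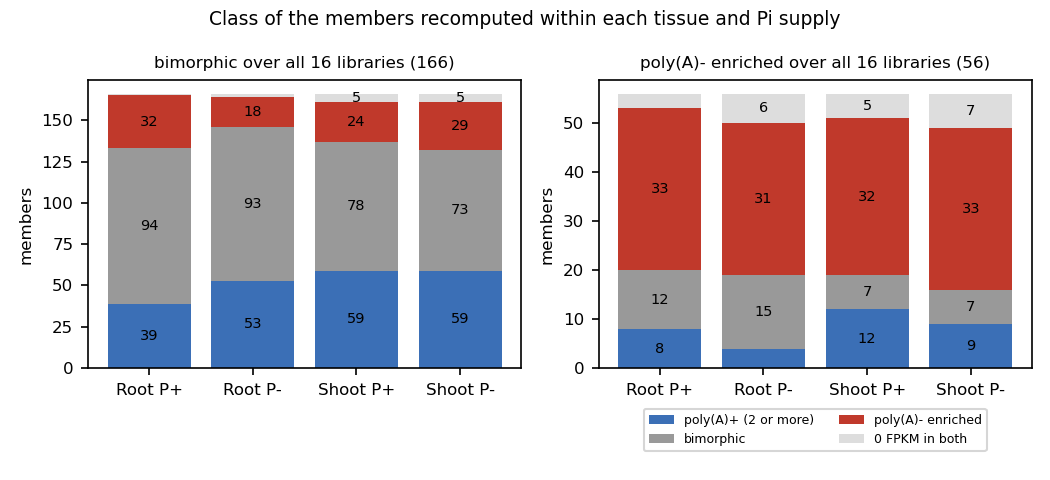
Number of members (vertical) by class recomputed within each tissue and Pi supply, for the 166 bimorphic (left) and the 56 poly(A)- enriched members (right). The bimorphic part of the left bars falls from 94 in P+ roots to 73 in P- shoots, while the red part of the right bars stays between 31 and 33.

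Most members lay opposite a coding gene. An annotated protein-coding gene on the other strand overlapped 108 of 154 bimorphic loci (70.1%, 95% Wilson interval 62.5 to 76.8), 31 of 55 poly(A)- enriched loci (56.4%, 43.3 to 68.6) and 97 of 182 poly(A)+ loci (53.3%, 46.1 to 60.4). The bimorphic and poly(A)+ intervals did not overlap. Median locus length was 1892 bases for bimorphic, 1415 for poly(A)- enriched and 1441 for poly(A)+ loci, and median GC content was 39.4%, 38.1% and 38.3%.

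The labels give 1 library of each of the 8 groups a stranded setting and 1 an unstranded setting. The study's methods describe strand-specific libraries for both fractions, so the labels and the methods differ here. Reads used without their strand cannot tell a lncRNA from its antisense coding gene. Members opposite a coding gene read lower in the library with the unstranded setting. The median log2 differences were -0.39 and -0.19 in poly(A)+ (P+ and P- shoots) and -0.61 and -0.48 in poly(A)-. Members with no coding gene opposite read higher, at 0.24, 0.04, 0.48 and 0.23 in the same order. These values are for shoots, since the root columns could not be tied to a strand setting. How far the setting bears on class was not tested.

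The 5 TAS transcripts among the members were all bimorphic, with ratios of 1.098 (TAS1A, AT2G27400.1), 1.04 (TAS1B, AT1G50055.1), 0.573 (TAS1C, AT2G39675.1), 1.41 (TAS2, AT2G39681.1) and 0.569 (TAS3, AT3G17185.2). Of 7 TAS loci listed, TAS3B and TAS3C held no member. A member could not be poly(A)+ by the rule, so these ratios do not describe TAS RNAs as a family. TAS1A read 8.89 and 10.8 FPKM in P+ roots and 24.2 and 25.2 in P- roots of poly(A)+, without overlap, and 19.6 and 23.7 in P+ shoots and 16.4 and 34.7 in P- shoots. Its log2 difference in roots was 1.25 ± 0.37 (SE, limma, adjusted p = 0.183). The poly(A)- values were 10.7 and 4.78, 25.8 and 10.8, 15.3 and 11.8, and 50.6 and 19.2 FPKM in the same order, without overlap between P+ and P- in either tissue, at adjusted p = 0.861 and 0.518 with limma.

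TAS1C, whose siRNAs share targets with those of TAS1A and TAS1B, stayed between 17.2 and 25.7 FPKM in all 8 poly(A)+ libraries and ranged from 20.4 to 72.7 FPKM in poly(A)-. TAS1B ranged from 12.5 to 26.8 FPKM in poly(A)+ and from 8.18 to 33.0 in poly(A)-. TAS2 read 9.31 and 5.49 FPKM in P- roots against 28.8 and 19.0 in P- shoots of poly(A)-, a log2 difference of -1.58 ± 0.45 (limma, adjusted p = 0.0545). TAS3, which feeds the siRNAs that target ARF transcripts, read 14.5 and 20.4 FPKM in P+ roots and 10.3 and 0 in P- roots of poly(A)-. Of the 5 as single transcripts, 0 passed an adjusted p of 0.05 in any of 14 comparisons with limma. Calls at an unadjusted p under 0.05 were those of TAS1A and TAS2 above, TAS1A between P+ roots and P+ shoots in poly(A)+ (adjusted p = 0.0685), TAS1B between P- and P+ shoots in poly(A)+ (adjusted p = 0.264) and the fraction by Pi term of TAS3 in roots (adjusted p = 1.00).

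Genes of the trans-acting siRNA pathway were read beside them, with FPKM summed per locus. In the 4 comparisons of P- with P+, 0 of 9 passed an adjusted p of 0.05 with limma, among them AGO1, AGO7, SGS3, RDR6 and DCL4. Between tissues under P+, the TAS3 target ARF2 was lower in roots by 1.37 on the log2 scale (poly(A)+, adjusted p = 0.0435), and AGO7, which binds miR390, was higher by 1.83 (poly(A)-, adjusted p = 0.0415), each 1 of 9, against 16.6% of all loci lower and 19.4% higher there, and 0 of 9 passed under P-. Of 14 genes for 3′ end formation and RNA decay, 13 were tested and 0 passed in those 4 comparisons. Between tissues 1 of the 13 was lower in roots under P+ in each fraction, 3 were higher and 1 lower under P- in poly(A)+, and 0 passed under P- in poly(A)-. The 1 that was lower was each time the deadenylase gene CAF1A, by 3.70 (P+, poly(A)+), 1.85 (P-, poly(A)+) and 3.44 (P+, poly(A)-), with adjusted p of 0.000587, 0.0198 and 0.00470 with limma. The 3 that were higher were HEN2, XRN4 and XRN2, which act in exosome-linked and 5′ to 3′ decay, by 1.39, 0.96 and 0.76 (adjusted p = 0.00406, 0.0229 and 0.0466), where 25.7% of all loci were higher in roots. Summed per locus, 6 of 7 TAS loci were tested in poly(A)+ and 5 in poly(A)-, with TAS3B and TAS3C on the list. In roots against shoots of poly(A)+, 1 was higher and 1 lower under P+ and 1 higher under P- (limma, adjusted p under 0.05). In poly(A)- 1 was lower under P- and 0 passed under P+. Of all loci, 28.6%, 16.6%, 25.7% and 9.29% were called so in the same order. Between P- and P+ 0 TAS loci passed. These values share the libraries of the members.

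The groups behaved as labelled. The 11 Pi starvation markers were all higher under P- in the poly(A)+ fraction of roots and of shoots, and 6 and 7 of 11 passed in poly(A)-. Summed shoot markers were 51.3 to 552 FPKM in root libraries and 9633 to 16223 in shoot libraries, and summed root markers 469 to 1180 and 0 to 45.7. In poly(A)+, 6 of the 8 root markers were higher in P- than in P+ shoots (limma, adjusted p under 0.05). Their median log2 difference was 2.05, and 4.02% of all loci were higher there. In poly(A)- 0 of the 8 passed. How far this bears on members that were higher in P- shoots was not tested.

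Pi starvation was tested on log2(FPKM + 1) for all transcripts with a mean of 1 FPKM or more over the 8 libraries of a fraction, which kept 180 members in poly(A)+ and 196 in poly(A)-, 198 in any test. Since a member had to pass this filter to be counted, the counts below describe those tested. Following the thresholds of the study, a transcript was called at a fold of 2 or more with unadjusted p under 0.05. The calls at an adjusted p under 0.05 are given beside them. In 1 or more of 14 comparisons, 109 of 198 members were called at a fold of 2, against 66.0% of all transcripts, and 54 at an adjusted p of 0.05, against 43.9%. At a fold of 2, 59 were called in at least 1 comparison of P- with P+ (30.9% of all transcripts) and 91 in at least 1 of roots with shoots (57.5%). Of 76 calls of members between P- and P+, 8 were of members that passed the filter only through the higher group, the mean of the other libraries being under 1 FPKM, and of 145 calls between tissues 14 were. Such a member had to differ once it was tested. These counts set aside 1 group at a time. A member high in both P- groups, such as AT5G44562.1, or in both groups of a tissue, such as AT1G15175.1, is not in them.

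In the poly(A)+ fraction of roots, 11 members were higher and 5 lower under P-, of 180 tested. Over all transcripts, 6.50% were called higher and 5.50% lower (11 and 5 of 180 for members). The median log2 difference was 0.00 for members and 0.06 over all. At an adjusted p of 0.05 only AT1G23052.1 was called, lower, where 0.715% and 0.464% of all were higher and lower. Without library 3 of P+ roots the calls rose from 16 to 40.

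AT1G23052.1 (chr1:8168443-8169267), antisense to the coding gene AT1G23050, read 13.9 and 18.3 FPKM in P+ roots and 1.88 and 1.34 in P- roots of poly(A)+. Its log2 difference was -2.71 ± 0.30 (SE, limma, adjusted p = 0.0143). The poly(A)- fraction of roots held 9.87 and 13.5 against 1.12 and 6.06 FPKM. Shoots were far higher, at 53.4 to 73.1 FPKM in poly(A)+ and 27.5 to 77.7 in poly(A)-, with no call between P+ and P-. The coding gene opposite read 13.02 and 14.8 against 7.37 and 4.88 FPKM in poly(A)+ roots, a log2 difference of -1.09 ± 0.34 (limma, adjusted p = 0.127).

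AT5G44562.1 was the member called higher under P- in all 4 comparisons, as were 0.359% of the transcripts tested in both fractions, and 0 members were called lower in all 4. It lies at chr5:17947617-17948398 on the minus strand, opposite VPS2.2, a gene for a subunit of the ESCRT membrane sorting machinery. In poly(A)+ it read 0.930 and 0.940 FPKM in P+ roots and 7.55 and 8.77 in P- roots, and 1.28 and 0.613 (P+) and 12.3 and 7.44 (P-) in shoots. All 4 P+ libraries of poly(A)- were listed at 0, while P- roots read 9.59 and 7.31 and P- shoots 6.88 and 5.11 FPKM. It thus passed the filter of 1 FPKM through its P- libraries. The P+ libraries of poly(A)+ lay at 0.613 to 1.28 FPKM, so its calls are a description.

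The groups of AT5G44562.1 did not overlap in any of the 4. The log2 differences in poly(A)+ were 2.24 ± 0.40 in roots and 2.47 ± 0.40 in shoots (SE, limma, adjusted p = 0.0603 and 0.0365), and in poly(A)- the adjusted p-values were 0.141 and 0.123. VPS2.2 read 37.8 and 42.6 FPKM in P+ roots and 42.9 and 74.3 in P- roots, and 38.01 and 49.4 (P+) and 18.1 and 25.3 (P-) in shoots of poly(A)+. Its log2 differences, 0.48 in roots and -0.98 in shoots, had adjusted p-values of 0.431 and 0.113.

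The P1BS motif GNATATNC, which the Pi starvation regulator PHR1 and its relatives bind, occurred 346 bases before the annotated start of AT5G44562, on a stretch shown with the motif in capitals. The pattern is its own reverse complement, so that a search of 1 strand covers both. Within 500 bases it was found at 22 of 200 member loci (11%) and at 3950 of 37899 annotated genes (10.4%), and within 2000 bases at 36.0% and 36.5%.
AT5G44562 upstream (chr5:17948707-17948774, - strand): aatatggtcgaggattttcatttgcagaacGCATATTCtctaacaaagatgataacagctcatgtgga

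AT3G12502.1 had the largest rise among members called in poly(A)+ roots whose libraries did not overlap. It is antisense to HCHIB, a basic chitinase gene of pathogen and ethylene responses, and read 6.07 and 23.9 FPKM in P+ roots and 234 and 160.0 in P- roots, and 2.37 and under 0.01 (P+) and 16.7 and 10.3 (P-) in shoots. The log2 differences were 3.87 ± 0.75 in roots and 2.95 ± 0.75 in shoots (SE, limma, adjusted p = 0.0723 and 0.103). HCHIB rose too, by 2.12 in roots and 3.93 in shoots (adjusted p = 0.0120 and 0.00149).

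In the poly(A)+ fraction of shoots 17 members were higher and 6 lower, against 7.55% and 5.40% of all transcripts, with medians of 0.18 for members and 0.11 over all. When libraries were rescaled to a common median ratio, the split of members was 12 higher and 9 lower. Without library 1 of P- shoots 14 calls were left. At an adjusted p of 0.05, AT5G44562.1 and AT5G48412.1 were higher and AT5G24206.1 lower (1.19% and 0.734% of all transcripts). AT5G24206.1 read 3.68 and 4.98 FPKM in P+ shoots and was listed at 0 in the other 6 poly(A)+ libraries, so it was tested only because of the group where it was high and its call is no support for a difference. Among calls that missed the adjusted threshold, AT5G42092.1 was higher by 2.65, and AT5G36002.1 and AT5G18245.1 lower by 2.55 and 1.67.

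AT5G48412.1 (chr5:19623516-19624232), an abundant member with no gene annotated opposite, changed in opposite directions in the tissues. In poly(A)+ it read 391 and 237 FPKM in P+ roots and 101 and 111 in P- roots, and 60.2 and 59.5 (P+) and 232 and 189 (P-) in shoots. P+ roots were above P- roots, P- shoots above P+ shoots, and none of these groups overlapped. The log2 differences were -1.52 ± 0.29 in roots and 1.79 ± 0.29 in shoots (SE, limma, adjusted p = 0.0676 and 0.0337).

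The difference between tissues was -3.31 ± 0.40 (limma, adjusted p = 0.0459). Its poly(A)- libraries read 142 and 167 in P+ roots and 63.8 and 40.3 in P- roots, and 79.3 and 35.4 (P+) and 131 and 59.96 (P-) in shoots. Roots again did not overlap, while shoots did, and the tissue by Pi term was -2.31 ± 0.73 (limma, adjusted p = 0.374).

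In the tissue by Pi term of poly(A)+, 4 members were higher and 13 lower, against 6.76% and 8.16% of all transcripts, where lower means that P- against P+ was smaller in roots than in shoots. AT5G48412.1 was the member at an adjusted p of 0.05 (0.0986% of all were higher and 0.0840% lower there). Without library 3 of P+ roots the calls rose from 17 to 38. In poly(A)-, 10 were higher and 13 lower against 3.46% and 5.90%, which became 12 and 10 after rescaling. There limma gave 0 members and 0 transcripts at an adjusted p of 0.05, and 23 members (9.50% of all transcripts) at an unadjusted p under 0.05.

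Among poly(A)- transcripts of roots, 5 members were higher and 7 lower, against 3.11% and 3.60% of all transcripts. Limma gave 0 members at an adjusted p of 0.05, where 0.0291% of all transcripts were higher and 0 lower, and 13 members (7.48% of all transcripts) at an unadjusted p under 0.05. The median log2 difference was -0.17 for members and -0.04 over all. Without library 2 of P- roots 20 members were called. Of the 12 calls, 3 were of members that passed the filter only through the higher group, and their values are a description. AT2G45245.2 read 10.3 and 10.3 FPKM in P+ roots and under 0.01 in the other 6 poly(A)- libraries. AT3G21781.1 read 5.999 and 20.9 FPKM and AT3G41761.1 2.85 and 17.1 FPKM in P- roots, and both were under 0.01 in the other 6.

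Among poly(A)- transcripts of shoots, 13 members were higher and 12 lower, against 7.41% and 4.53% of all transcripts, with medians of 0.17 and 0.13. At an adjusted p of 0.05 limma gave 0 members, where 0.211% of all transcripts were higher and 0.0582% lower, and at an unadjusted p under 0.05 it gave 27 members (13.3% of all transcripts). Without library 2 of P+ shoots 39 were called. AT1G79075.1, an abundant bimorphic member, read 104 and 130.5 FPKM in P+ shoots and was listed at 0 in both P- libraries (adjusted p = 0.0553). In poly(A)+ the same shoots read 73.2 and 108 against 31.7 and 60.5 FPKM, so that the RNA was listed at 0 in 1 fraction only.

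AT5G63195.1, antisense to AT5G63190, showed the reverse in shoots. It was under 0.03 FPKM in both P+ libraries and at 47.5 and 32.0 FPKM in both P- libraries of poly(A)- (adjusted p = 0.0885). In poly(A)+ shoots the groups overlapped, at 36.9 and 9.90 against 45.2 and 14.5 FPKM. AT2G35859.1 read 14.8 and 14.5 FPKM in P+ shoots of poly(A)- and 1.48 and under 0.01 in P- shoots, a log2 difference of -3.31 ± 0.62 (limma, adjusted p = 0.102).

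**Figure D4:**
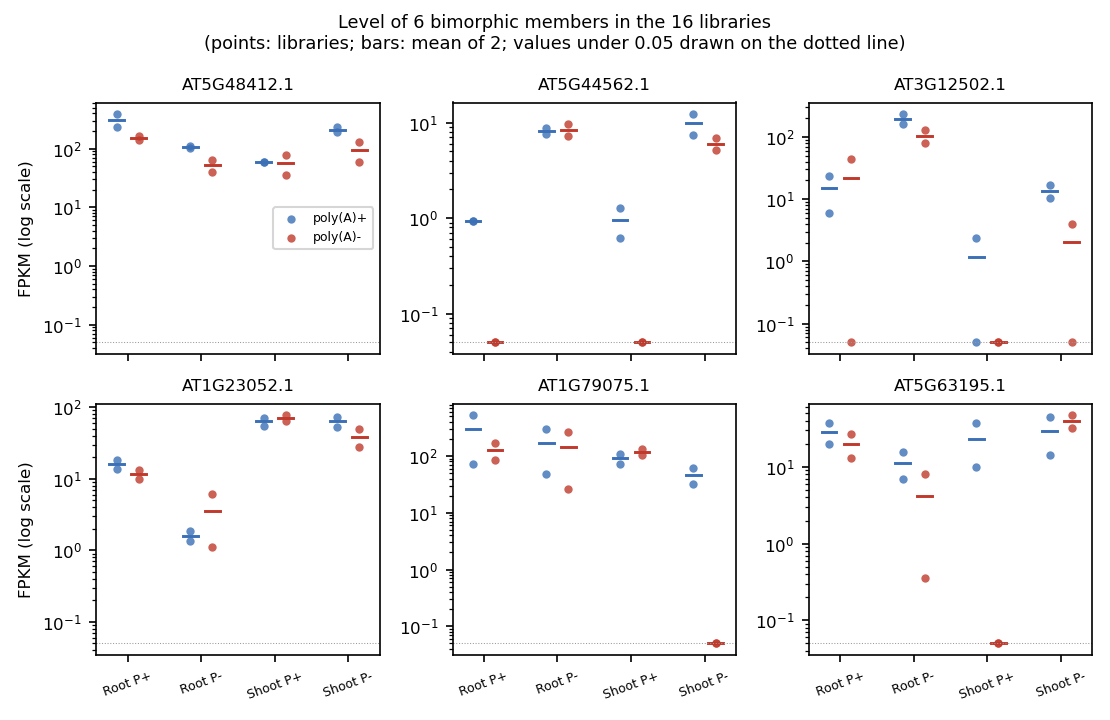
FPKM (log scale) of 6 bimorphic members in each library, by tissue and Pi supply, with poly(A)+ in blue, poly(A)- in red, points for libraries, bars for the mean of 2 and values under 0.05 on the dotted line. AT5G44562.1 is higher in every P- library than in every P+ library, and AT5G48412.1 is lower in P- roots and higher in P- shoots of poly(A)+.

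Of 178 members tested in both fractions, 2 were higher and 3 lower under P- in both fractions of roots, against 1.71% and 1.51% of all transcripts, and 3 and 1 in both of shoots, against 2.18% and 1.38%. In roots, AT1G50659.1 and AT5G44562.1 were higher and AT1G23052.1, AT5G48412.1 and AT3G44798.1 lower in both. In shoots, AT1G33415.2, AT3G44798.1 and AT5G44562.1 were higher and AT2G36792.1 lower in both, and 0 were called in opposite directions. AT2G36792.1 passed the filter in poly(A)- only through P+ shoots, where it was high. AT3G44798.1 was thus the member called lower in P- roots and higher in P- shoots of both fractions. It read 15.3 and 28.4 FPKM in P+ roots and 9.26 and 10.2 in P- roots, and 8.64 and 11.1 (P+) and 18.1 and 26.4 (P-) in shoots of poly(A)+. Its poly(A)- libraries read 15.8 and 29.2, 4.26 and 2.29, 0 and 0, and 14.6 and 5.19 FPKM in the same order.

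Any call of AT5G44562.1 is a description, as stated above, and the 4 calls at an adjusted p of 0.05 between P- and P+ were not firm. 0 of the 4 kept that call in every fit that left out 1 library, and leaving out any of the 2 P- root or 4 shoot libraries of poly(A)+ left 0 calls of this kind, while leaving out a P+ root library of poly(A)+ gave 7 and 20. Of 29 further comparisons of named members called at a fold of 2 and unadjusted p under 0.05, only some kept that call in every such fit. Among them was AT3G12502.1 in poly(A)+ of both tissues. So were AT5G44562.1 in roots of both fractions, and in poly(A)- AT2G45245.2, AT3G21781.1 and AT3G41761.1 in roots and AT2G36792.1 in shoots. These members passed the filter only through the libraries where they were high, so that their calls were kept is no support for a difference.

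More members were called between tissues than between Pi supplies. Under P+ in poly(A)+, 19 members were higher in roots and 16 in shoots, where 22.8% and 14.8% of all transcripts were called. At an adjusted p of 0.05 the counts were 14 and 12, against 19.5% and 12.8%. Under P- they were 11 and 22 against 21.4% and 13.3%, and 5 and 16 at the adjusted threshold against 16.9% and 11.3%. In poly(A)-, 27 and 11 were called under P+ against 21.7% and 10.9%, and 14 and 7 at the adjusted threshold against 13.2% and 7.17%. Under P- in poly(A)-, 22 and 17 were called against 17.2% and 11.4%, and 8 and 7 at the adjusted threshold against 9.59% and 6.75%.

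The median of all transcripts was itself shifted toward roots, by 0.31 and 0.29 in poly(A)+ and 0.44 and 0.20 in poly(A)- (P+ and P-), and that of members by 0.10, 0.02, 0.26 and 0.00. Rescaling the libraries gave 14 members higher in roots and 21 in shoots in place of 19 and 16, and 23 and 15 in place of 27 and 11, both under P+. The directions of the members named next held under rescaling.

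In all, 53 of 198 members passed an adjusted p of 0.05 in at least 1 tissue comparison, 17 in at least 2 and 5 in all 4, against 43.7%, 25.5% and 9.09% of all transcripts. At a fold of 2 and unadjusted p under 0.05, AT1G67328.1 and AT2G19572.1 were higher in roots in all 4 comparisons, where 8.79% of all transcripts were. AT1G67328.1, antisense to AT1G67330, read 26.2, 26.8, 37.4 and 29.9 FPKM in the 4 root libraries of poly(A)+ and 3.24, 2.09, 3.55 and 0.991 in the shoot libraries. In poly(A)- it read 92.8, 12.5, 27.6 and 32.5 FPKM in roots and was listed at 0 in 3 of 4 shoot libraries, with 2.53 FPKM in the other. It thus passed the filter in poly(A)- only through its root libraries, so its calls in that fraction are a description. Its log2 differences in poly(A)+ were 2.93 ± 0.44 under P+ and 3.52 ± 0.44 under P- (SE, limma, adjusted p = 0.00264 and 0.00153), and AT1G67330 was higher in roots by 4.02 and 2.84.

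AT2G19572.1, antisense to the cytidine deaminase gene CDA1, read 53.0 to 109 FPKM in roots and 6.51 to 19.8 in shoots of poly(A)+, and 43.1 to 104 and 9.25 to 22.9 in poly(A)-. The log2 differences ran from 1.90 to 2.40, with adjusted p-values from 0.00851 to 0.0173, and CDA1 was higher in roots by 1.42 to 2.71.

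Higher in shoots in all 4 comparisons were AT1G15175.1, AT1G23052.1, AT3G21755.1 and AT3G21755.2, against 6.30% of all transcripts. In both fractions AT1G15175.1, AT3G21755.1 and AT3G21755.2 passed the filter of 1 FPKM only through their shoot libraries. They had to differ once tested, so their calls are a description. AT1G15175.1 read 0 to 1.95 FPKM in roots of both fractions, and in shoots 19.9 and 30.8 (P+) and 7.14 and 10.8 (P-) in poly(A)+ and 29.0 and 27.4 and 6.17 and 3.92 in poly(A)-. The coding gene opposite, AT1G15170, did not move with it, with log2 differences of 0.29, 0.19 and 0.49 in the 3 comparisons where AT1G15175.1 passed the adjusted threshold (-3.91, -3.03 and -4.87). AT1G23052.1 was lower in roots by 1.91 and 4.61 in poly(A)+ and by 2.50 and 3.31 in poly(A)- (P+ and P-).

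The transcripts AT3G21755.1 and AT3G21755.2 come from 1 locus, antisense to the glucosyltransferase genes UGT71B1 and HYR1, and the reads of both can be split between them by the estimate. AT3G21755.1 read 0.295 to 1.15 FPKM in roots and 5.91 to 14.1 in shoots of poly(A)+, and was called bimorphic (ratio 0.940), while AT3G21755.2 was poly(A)- enriched (ratio 0.277). HYR1 was lower in roots in all 4 comparisons, by 2.40 to 4.19, and UGT71B1 passed an adjusted p of 0.05 in none of them with limma, with adjusted p-values of 0.649, 0.141, 0.300 and 0.110.

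Members with both directions among their adjusted calls were AT5G48412.1, AT2G35738.1 and AT5G63195.1. AT5G48412.1 was higher in roots under P+ (2.33 ± 0.29) and lower under P- (-0.98 ± 0.29) in poly(A)+. AT5G63195.1 was higher in roots under P+ (4.28 ± 0.93) and lower under P- (-3.51 ± 0.93) in poly(A)-, and AT2G35738.1, at 0 to 6.20 FPKM there, lower under P+ (-2.34 ± 0.59) and higher under P- (2.64 ± 0.59). Of 83 adjusted tissue calls of named members, 16 held in every fit that left out 1 library, among them those of AT1G15175.1 under P+ in both fractions, of AT1G23052.1 and AT1G67328.1 in poly(A)+ under P+ and P-, and of AT5G48412.1 under P+. The P- calls of AT5G48412.1 and AT5G63195.1 held in 2 and 1 of 8 such fits, and the P+ call of AT5G63195.1 and both of AT2G35738.1 in 4 of 8. Of the 83, 10 were of members that passed the filter only through the higher group, with 1 group set aside at a time. That count leaves out members that passed only through both groups of a tissue. Among these were AT1G15175.1, AT3G21755.1 and AT3G21755.2 in both fractions and AT1G67328.1 in poly(A)-. Such calls are a description, and that they held in other fits is no support for them.

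**Figure D5:**
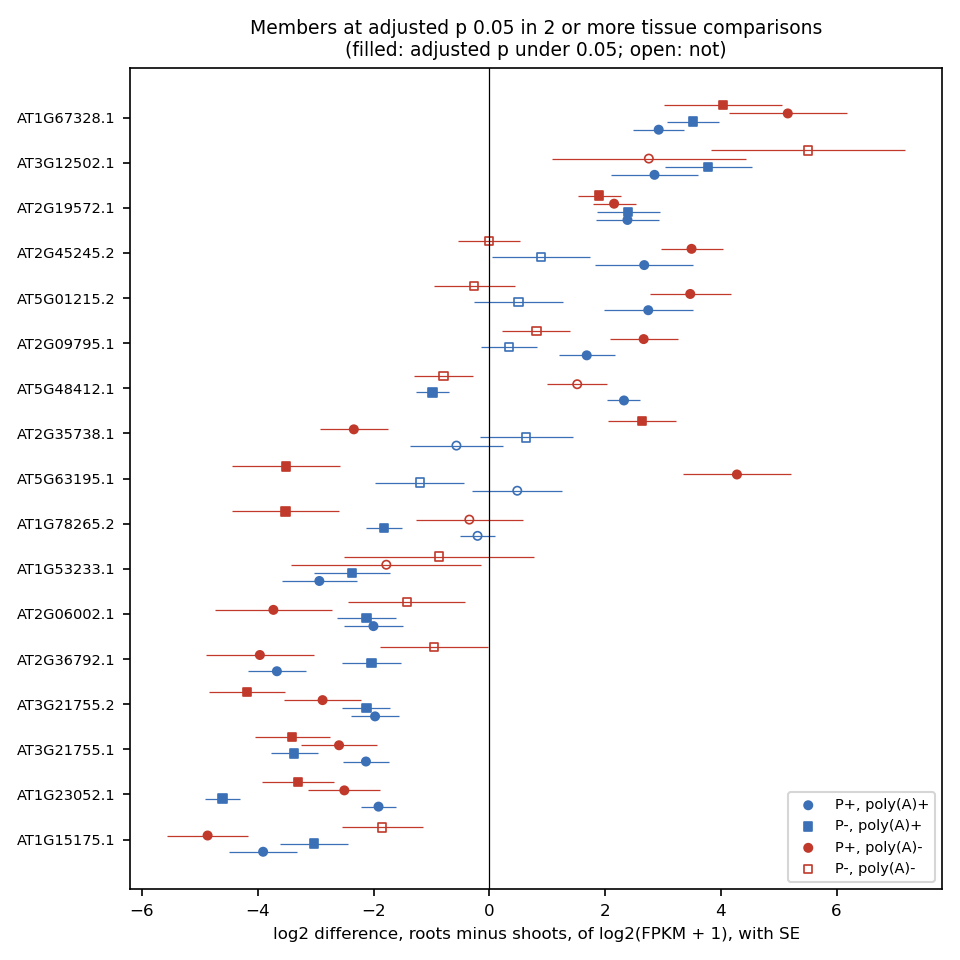
Log2 difference of roots minus shoots on the log2(FPKM + 1) scale, with SE, for the 17 members at an adjusted p under 0.05 in 2 or more of the 4 tissue comparisons (circles P+, squares P-, blue poly(A)+, red poly(A)-, filled where the adjusted p is under 0.05). AT1G67328.1 and AT2G19572.1 lie right of 0 in all 4, AT1G23052.1 and AT3G21755.1 left of 0 in all 4, and AT5G48412.1, AT2G35738.1 and AT5G63195.1 lie on both sides.

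The difference of each antisense member was set beside that of the coding gene opposite. The comparisons of P- with P+ held 17 pairs of loci among named members, of which 14 had the same sign in each comparison used and 2 the opposite sign. The coding gene passed an adjusted p of 0.05 with limma with the same sign in 1 pair and with the opposite sign in 0. In a single comparison of P- with P+, 0.097% to 4.02% of all loci were higher at that threshold and 0.0146% to 2.53% lower. The tissue comparisons held 40 pairs, of which 31 had the same sign throughout and 6 the opposite sign, and the coding gene passed with the same sign in 20 and with the opposite sign in 0. Of all loci, 14.7% to 28.6% were higher and 9.29% to 16.6% lower in roots at that threshold in a single tissue comparison. A pair could count through any of its comparisons, so these shares are not like the 20 of 40. Of single transcripts, 43.7% passed in at least 1 of the 4. A share of same signs over all loci was not computed, so the counts of signs are a description. A coding gene opposite more than 1 member locus, or a locus opposite more than 1 coding gene, enters more than 1 pair. Both RNAs of a pair were read in the same libraries, 1 of 2 in every group having an unstranded setting in the labels. How far reads of the coding gene entered these values was not tested.

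The terms for fraction asked whether a difference between Pi supplies or tissues was larger in poly(A)+ than in poly(A)-, among 192 members tested over 16 libraries. For Pi supply in roots 9 members were higher and 2 lower, against 1.82% and 1.17% of all transcripts, and 6 and 4 after rescaling. In shoots 9 were higher and 8 lower, against 3.16% and 4.39%. For tissue, 2 were higher and 13 lower under P+ against 2.86% and 5.93%, and 4 and 9 under P- against 3.18% and 3.46%. Limma gave 0 members at an adjusted p of 0.05 in these 4 terms, where 0 transcripts were called for Pi supply and 0.0179% (P+) and 0.0214% (P-) were lower for tissue. At an unadjusted p under 0.05 it gave 11, 17, 15 and 13 members, against 3.10%, 7.84%, 9.07% and 6.93% of all transcripts.

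Among the members called, the largest term for Pi supply in shoots was that of AT1G27921.2 (-6.50, limma, adjusted p = 0.520), and for tissue under P+ that of AT3G24518.1 (-5.95, adjusted p = 0.300). Several members described above, listed at or near 0 in 1 fraction of 1 condition, were also called. For Pi supply in shoots AT1G79075.1 (adjusted p = 0.330), AT2G35859.1 (0.206) and AT5G63195.1 (0.307) were such calls with limma, and for tissue under P+ AT3G44798.1 (0.169) and AT1G51645.1 (0.178). These counts moved with single libraries. Without library 2 of P+ shoots in poly(A)-, the calls for Pi supply in shoots rose from 17 to 32 and those for tissue under P+ from 15 to 31. Without library 1 of P+ shoots in poly(A)+ they fell to 9 and 6, and the first count also fell to 10 and 11 without library 2 of P+ shoots or library 1 of P- shoots in poly(A)+. The count for Pi supply in roots was 7 without library 2 of P+ roots in poly(A)+, 17 without library 3 of P+ roots in poly(A)- and 18 without library 2 of P- roots in poly(A)-. Those for tissue were 25 under P+ without library 3 of P+ roots in poly(A)-, and 24 under P- without library 2 of P- roots or library 2 of P- shoots in poly(A)-.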

How the data were processed

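Poly(A)+ and poly(A)- RNA of roots and shoots under P+ and P- was sequenced in 16 libraries. Per the study's methods the authors mapped reads to TAIR10 with TopHat2, removed reads of organelle genomes, assembled transcripts with Cufflinks and deposited FPKM per transcript estimated with eXpress. These values are not counts and carry no read depth, so no counting interval could be given. The 2 libraries of a group are biological replicates. Root columns were tied to a group only. Deposited fold changes and p-values of the authors' own comparisons were not used.

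Members and lists were chosen with earlier results of these data known. Transcripts with a mean of 1 FPKM or more over the 8 libraries of a fraction (16 for terms with fraction) were tested on log2(FPKM + 1) with limma 3.58.1 (trend) in R 4.3.3, one fit per fraction over its 4 groups, with Benjamini-Hochberg adjustment over all 27395, 27497 or 28002 transcripts tested. Differences on this scale understate changes of low transcripts. Named members were the 8 highest, the 8 lowest ratios, the 4 on each side of the limit, up to 4 a direction and comparison without overlap and with 2 FPKM in a group, TAS or qRT-PCR members, those at an adjusted p of 0.05, and the coding genes opposite. Gene names, strands and sequences came from the RefSeq annotation of TAIR10.1. The fit was tested on simulated data. Alternatives were another pseudocount, filter, scaling, fits of each tissue or Pi supply alone, sums per locus, a replicate block, other membership rules and leaving out each library. Pandas 2.3.3 and Python 3.11.15 were used.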

Additional observations from a re-analysis of the deposited data

Results flagged for a closer look

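AT5G48412.1 was singled out because the effect of Pi supply differed between tissues by the test of the difference itself. In poly(A)+ the log2 difference of P- against P+ in roots minus that in shoots was -3.31 (SE 0.40, limma, adjusted p = 0.0459), with both P- root libraries below both P+ root libraries and both P- shoot libraries above both P+ shoot libraries. In poly(A)- the same term was -2.31 (SE 0.73, adjusted p = 0.374). The term in poly(A)+ missed an adjusted p of 0.05 after rescaling of the libraries, with no filter on low values and with a replicate block (adjusted p up to 0.137), and passed in the other 3 settings. Leaving out 1 library at a time it passed in 2 of 8 fits, those without a P+ root library, with adjusted p from 0.0134 to 0.301.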

How the results depend on the processing

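The sign of the log2 difference was checked for comparisons in which a member was named for its size or passed an adjusted p of 0.05. None of these changed sign in the alternative fits of its transcript. Other differences of named members were not checked. Splits of member calls did turn with rescaling. For roots against shoots under P+ in poly(A)+, 19 higher and 16 lower became 14 and 21. For the tissue by Pi term in poly(A)-, 10 and 13 became 12 and 10. The median over all transcripts for Pi supply in poly(A)+ roots went from 0.06 to -0.02. Counts of members called moved by more than 1.5 times as follows. With a filter at a mean of 5 FPKM, calls for P- against P+ were 9 (roots) and 13 (shoots) in poly(A)+ and 7 and 14 in poly(A)-, those for roots against shoots 22 (P+, poly(A)-), 21 (P-, poly(A)+) and 25 (P-, poly(A)-), and the fraction terms 3 (Pi, roots), 9 (Pi, shoots) and 6 (tissue, P-), with fewer members tested. With a pseudocount of 5 FPKM, calls in poly(A)+ were 7 (roots) and 12 (shoots) for Pi supply and 20 (P+) and 18 (P-) for tissue, and the fraction by Pi term in shoots gave 8. With a pseudocount of 0.1 FPKM the fraction by tissue terms gave 23 (P+) and 22 (P-), and the 6 interaction terms 6 members at an adjusted p of 0.05. Fitting roots alone gave 9 calls for Pi supply in poly(A)+. FPKM summed per locus gave 15 members at an adjusted p of 0.05 over the 4 comparisons of P- with P+, and 30 calls for the tissue by Pi term in poly(A)+. Rescaling gave 0 members at an adjusted p of 0.05 in the interaction terms. A ratio of medians gave 141 members (107 bimorphic, 34 poly(A)- enriched, 133 shared with the 222), and the mean of 4 log2 ratios 262 bimorphic and 13 poly(A)- enriched transcripts.

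The replicate block gave 0 members at an adjusted p of 0.05 for P- against P+ (4 without it) and 0 for interactions (1 without it), 53 adjusted calls for roots against shoots (83 without it), 51 calls for roots against shoots under P- in poly(A)+ (33) and 28 for the tissue by Pi term in poly(A)+ (17). Same-numbered P+ and P- libraries deviated together only weakly, with a correlation across transcripts of 0.128 and 0.103 in roots and 0.158 and 0.0423 in shoots (poly(A)+ and poly(A)-). With 2 pairs and no shared batch in the labels they share a number only.

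Leaving out 1 library at a time, calls for P- against P+ ranged from 11 to 40 (roots) and 14 to 31 (shoots) in poly(A)+, and from 9 to 20 and 23 to 39 in poly(A)-. Tissue by Pi ranged from 13 to 38 in poly(A)+ and 16 to 32 in poly(A)-. Roots against shoots ranged from 26 to 52 (P+) and 27 to 40 (P-) in poly(A)+ and from 33 to 41 and 27 to 48 in poly(A)-. Fraction by Pi ranged from 7 to 18 (roots) and 9 to 32 (shoots), fraction by tissue from 6 to 31 (P+) and 10 to 24 (P-). Adjusted calls ranged from 0 to 20 for Pi supply, 61 to 102 for tissue and 0 to 8 for interactions, and members from 208 to 243, bimorphic from 152 to 187 and poly(A)- enriched from 52 to 61. A lone library of a group was assumed to vary like the others. The causes were not tested.

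Limits were set by 2 libraries a group and by values of 0. The SD of log2 replicate differences of members was 1.04 to 1.30 in poly(A)+ and 1.68 to 2.12 in poly(A)-, and 63 to 79 of 222 members were listed at 0 in each shoot poly(A)- library.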
